A study of Mus musculus with 8 samples.

Results

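The enzymes that turn cholesterol into bile acids were examined as a set of 10 genes in mouse liver, chosen by name from the known pathway and not from their values. They were taken from 19540 genes measured on 8 Affymetrix arrays of liver total RNA, and each of the 10 had 1 probe set paired with its symbol alone. The 4 HNF6KO arrays are from livers depleted of HNF6, the homeodomain transcription factor encoded by Onecut1, and the 4 WT arrays are from wild-type livers. All 8 samples are labelled as male, C57B/6, 12 weeks old, fed normal chow, kept on a light/dark schedule and taken at ZT10, which is 10 h after lights on. The sources used here do not say how or from which cells HNF6 was removed, nor whether each array is a separate animal, so a p-value here covers the spread among these samples alone, which may be technical.

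Hepatocytes make bile acids from cholesterol by 2 routes. The classic route starts in the endoplasmic reticulum with CYP7A1, which sets the rate of synthesis, and CYP8B1 then decides how much cholic acid is formed. The alternative route starts from oxysterols, mainly those made by CYP27A1 in mitochondria, which CYP7B1 and, for one oxysterol, CYP39A1 go on to hydroxylate. Both routes share the reshaping of the sterol ring, the trimming of the side chain in peroxisomes and the joining to taurine or glycine. In mouse liver the classic route varies over the day and is held down by bile acids through the receptor FXR and the hormone FGF15.

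Of these 10 enzymes, Akr1d1, which reduces the sterol ring in both routes, rose in HNF6KO livers, and the other 9 did not pass the test. Neither enzyme of the classic route passed, nor did any of the 3 enzymes of the alternative route. The test was limma's moderated test on log2 values, adjusted by Benjamini-Hochberg across the 19540 genes, and a gene passed with an adjusted p below 0.05. Against 1 of 10 enzymes (1 higher, 0 lower), 0.399% of all genes passed, 0.159% higher and 0.241% lower. The median log2 change, HNF6KO minus WT, was -0.11 over the 10 enzymes and -0.015 over all genes, with 4 enzymes above 0 and 6 below. Groups did not overlap for 2 enzymes, Akr1d1 and Slc27a5, both higher in HNF6KO (2 higher, 0 lower), beside 5.67% of all genes, 2.45% higher and 3.21% lower. At an unadjusted p of 0.05, 2 enzymes were higher and 1 was lower, beside 9.51% of all genes, 4.3% higher and 5.21% lower. With counts this small, nothing is read from them about the enzymes as a set.

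**Figure D1:**
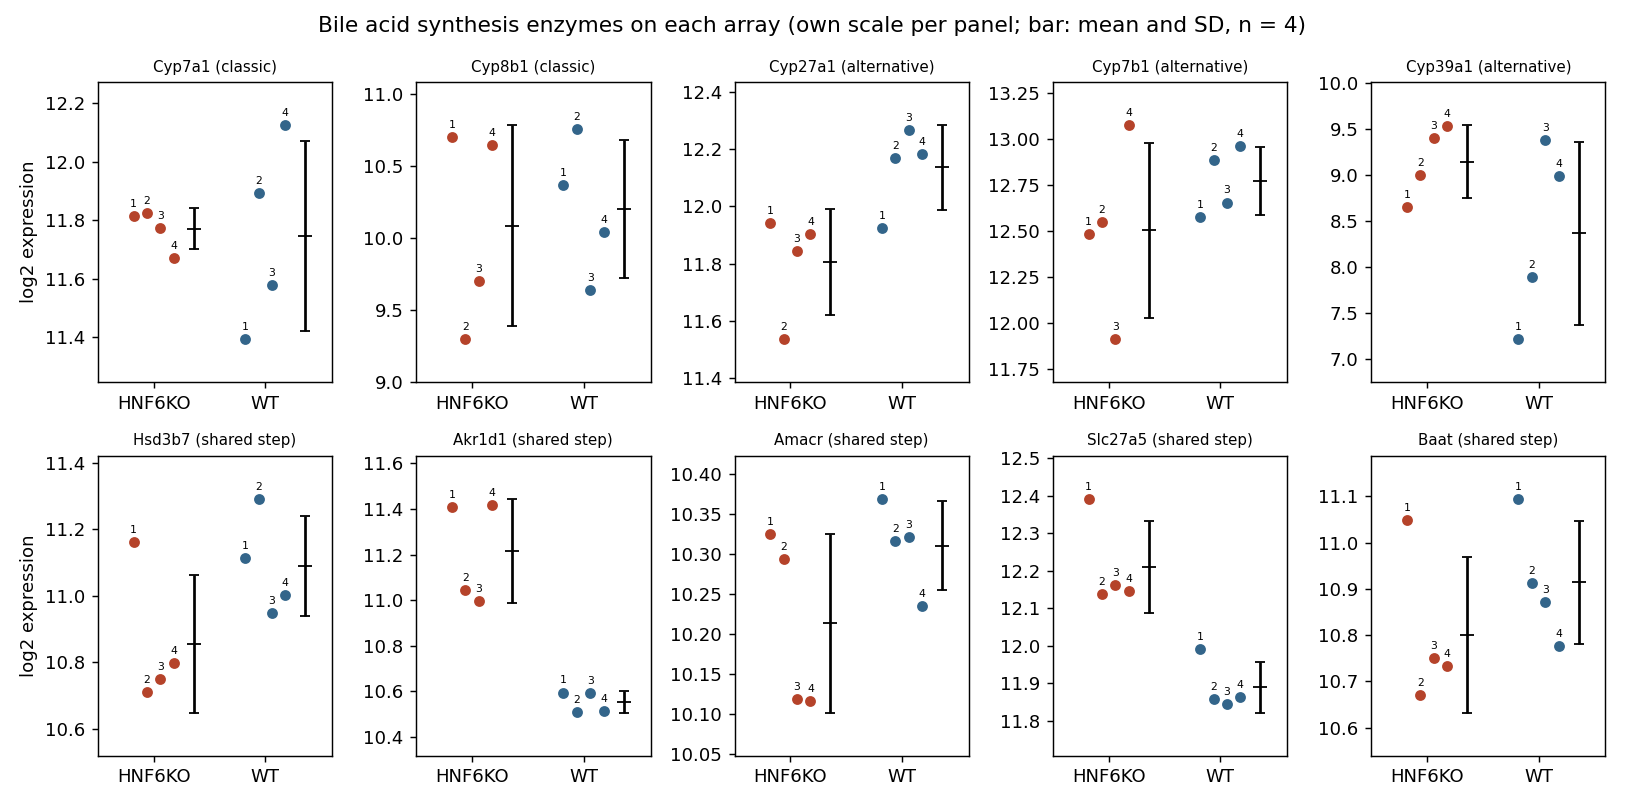
Log2 expression of the 10 enzymes (vertical axis, a scale of its own in each panel) on the 4 HNF6KO and the 4 WT arrays, with the array number beside each point and a bar for the mean and SD. The HNF6KO arrays lie above all WT arrays for Akr1d1 and Slc27a5 and overlap with them for the other 8 enzymes.

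Onecut1, the targeted gene, had log2 values of 9.32, 9.05, 8.67 and 8.70 on HNF6KO arrays 1 to 4, all below the 9.87 to 10.52 of the WT arrays, and fell by 1.32 ± 0.18 (SE) on the log2 scale (limma, adjusted p = 0.0273), a call lost without HNF6KO array 3 or 4 or WT array 1, 3 or 4 (adjusted p = 0.0633 to 0.0954). Array medians lay between 6.89 and 6.97, and no pair of arrays was a copy (Pearson r 0.987 to 0.997 across probe sets). The 6 measured hepatocyte markers, among them Alb, Apoa1 and Cps1, averaged log2 values of 13.65 to 13.75 on HNF6KO arrays and 13.60 to 13.67 on WT arrays. The 6 cholangiocyte markers averaged 5.86 to 5.96 and 5.89 to 5.91 on the same scale, below every array's median. The 7 Kupffer cell markers separated arrays more than genotypes, with means of 8.18, 7.69, 9.23 and 8.96 on HNF6KO arrays 1 to 4 and 7.57, 8.44, 8.63 and 8.85 on WT arrays 1 to 4. The 8 pericentral hepatocyte markers, of the zone where the classic route is most active, averaged 10.60 to 10.91 on HNF6KO arrays and 10.81 to 10.90 on WT arrays. Of 50 measured markers of hepatocyte zones and other liver cells, 0 passed the test in limma, with 3 higher and 2 lower at an unadjusted p of 0.05, beside 9.51% of all genes. Alas2, the heme synthesis enzyme of red cell precursors and the only erythroid marker measured, had log2 values of 9.32, 9.09, 8.39 and 8.53 on HNF6KO arrays 1 to 4, all below the 9.70 to 10.02 of the WT arrays, with a log2 change of -0.98 ± 0.19 (SE, limma, adjusted p = 0.0925). Its part in the values of the enzymes was not tested. In whole liver RNA, fewer cells of a type and less RNA per cell cannot be told apart. All 10 enzymes lay above the 40th percentile of mean values, so a filter on dim genes removed none of them.

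Cyp7a1, the first and rate-setting enzyme of the classic route, averaged 11.77 in HNF6KO and 11.75 in WT on the log2 scale and did not pass. Cyp7a1 measured log2 values of 11.81, 11.82, 11.78 and 11.67 on HNF6KO arrays 1 to 4, against 11.39, 11.89, 11.58 and 12.13 on WT arrays 1 to 4. All 4 HNF6KO arrays fell inside the range of the WT arrays, and the SD was 0.07 in HNF6KO and 0.33 in WT (n = 4 each). Cyp7a1 thus had a log2 change of 0.023 ± 0.14 (SE), with a 95% interval of -0.30 to 0.34 (limma, adjusted p = 0.982). On a linear scale that interval runs from 0.814 to 1.27 times the WT level. The sign of this small difference turned without WT array 1 (-0.094) or WT array 3 (-0.033) and within the arrays numbered 3 and 4 (-0.13).

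Cyp8b1, the sterol 12α-hydroxylase that leads to cholic acid, varied more between arrays of one genotype than between genotypes. On the log2 scale Cyp8b1 measured 10.70, 9.30, 9.70 and 10.64 on HNF6KO arrays 1 to 4, against 10.37, 10.76, 9.64 and 10.05 on WT arrays 1 to 4. The SD was 0.70 in HNF6KO and 0.48 in WT, where the median gene had 0.11 and 0.08. For Cyp8b1 the log2 change was -0.12 ± 0.35 (SE), with an interval of -0.90 to 0.67 (limma, adjusted p = 0.964), so HNF6KO levels between 0.535 and 1.59 times the WT level could not be told apart at 4 arrays per group. The Cyp8b1 change was -0.56 among arrays 1 and 2, against 0.33 among arrays 3 and 4, and it was 0.15 without HNF6KO array 2, 0.013 without HNF6KO array 3 and 0.069 without WT array 2.

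Cyp27a1, the mitochondrial sterol 27-hydroxylase that opens the alternative route and also oxidises the side chain in the classic one, was lower on average in HNF6KO and did not pass over all genes. The Cyp27a1 probe set gave log2 values of 11.94, 11.54, 11.84 and 11.90 on HNF6KO arrays 1 to 4, against 11.92, 12.17, 12.27 and 12.18 on WT arrays 1 to 4. HNF6KO array 1 lay just above WT array 1, and the other 3 HNF6KO arrays lay below every WT array. The means were 11.81 ± 0.18 in HNF6KO and 12.14 ± 0.15 in WT (SD, n = 4 each), a log2 change of -0.33 ± 0.10 (SE) with an interval of -0.57 to -0.09 (limma, unadjusted p = 0.0114, adjusted p = 0.327). Arrays 1 and 2 alone gave a difference of -0.31, and arrays 3 and 4 one of -0.35.

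Cyp7b1, the oxysterol 7α-hydroxylase and the next step of the alternative route, ranged widely in HNF6KO livers. Log2 values of Cyp7b1 were 12.48, 12.55, 11.91 and 13.08 on HNF6KO arrays 1 to 4, against 12.58, 12.89, 12.66 and 12.96 on WT arrays 1 to 4. The highest and the lowest of the 8 values were both HNF6KO arrays. Cyp7b1 had a log2 change of -0.26 ± 0.21 (SE), with an interval of -0.75 to 0.22 (limma, adjusted p = 0.780). Single arrays decided its size, at -0.067 without HNF6KO array 3 and -0.46 without HNF6KO array 4.

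Cyp39a1, which hydroxylates 24-hydroxycholesterol, had the widest spread among the WT arrays of the 10 enzymes. Across the arrays Cyp39a1 measured 8.65, 9.00, 9.40 and 9.52 on HNF6KO arrays 1 to 4, against 7.22, 7.88, 9.37 and 8.99 on WT arrays 1 to 4. WT arrays 1 and 2 lay below every other array, while WT arrays 3 and 4 lay within the HNF6KO range. The means were 9.14 ± 0.40 in HNF6KO and 8.36 ± 0.99 in WT (SD, n = 4 each), a log2 change of 0.78 ± 0.44 (SE) with an interval of -0.21 to 1.77 (limma, adjusted p = 0.642). The Cyp39a1 change was 1.27 among arrays 1 and 2, 0.28 among arrays 3 and 4, and 0.39 without WT array 1. Over arrays 1 and 2 of both genotypes the 7 Kupffer markers averaged 7.97 on the log2 scale, against 8.92 over arrays 3 and 4. Endothelial markers averaged 8.39 and 9.05 in turn, and stellate markers 7.93 and 8.19. Cholangiocyte markers averaged 5.91 and 5.90 in the same order, and lymphocyte markers 5.73 and 5.68. Alas2 averaged 9.48 and 9.16, from HNF6KO values of 9.32 and 9.09 against 8.39 and 8.53. Its WT values, 9.70 and 9.82 against 10.02 and 9.70, showed no such fall. The part of these cell types in the Cyp39a1 values was not tested. With array number as a block the adjusted p was 0.210, and with a term for the split by array number (1 and 2 against 3 and 4) it was 0.159.

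**Figure D2:**
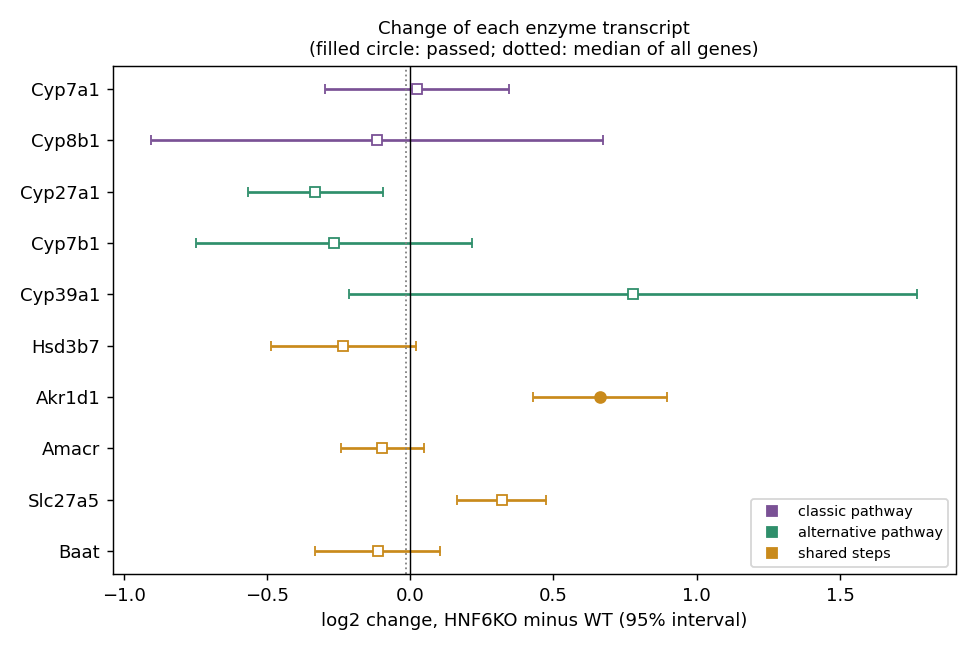
Log2 change, HNF6KO minus WT, of each enzyme with its 95% interval (horizontal axis), coloured by route, beside the median of all genes (dotted line). Akr1d1, at 0.66, is the only filled circle, and the intervals of Cyp8b1 (-0.90 to 0.67) and Cyp39a1 (-0.21 to 1.77) are the widest.

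The 2 routes were set against each other by pairs of enzymes, as the difference of their log2 values within an array, in which any shift shared by the whole array cancels. Only the gap between genotypes is read, because levels of different probe sets cannot be compared. For the opening enzymes, Cyp7a1 minus Cyp27a1 was -0.13, 0.29, -0.07 and -0.23 on HNF6KO arrays 1 to 4, against -0.53, -0.28, -0.69 and -0.06 on WT arrays 1 to 4. WT arrays 1, 2 and 3 lay below all HNF6KO arrays and WT array 4 above all but one. The difference between genotypes was 0.35 toward the classic enzyme in HNF6KO (exact permutation test over 70 assignments, two-sided, p = 0.143, adjusted over 3 pairs p = 0.429). Without single arrays it ran from 0.25 to 0.46. It was largest without WT array 4 (exact permutation test, two-sided, p = 0.0286, adjusted p = 0.0857).

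For Cyp7a1 minus Cyp7b1 the difference between genotypes was 0.29, from -0.67, -0.73, -0.14 and -1.41 on HNF6KO arrays 1 to 4, against -1.18, -0.99, -1.08 and -0.84 on WT arrays 1 to 4. HNF6KO array 4 lay below all WT arrays and the other 3 above them (exact permutation test, two-sided, p = 0.371, adjusted p = 0.557). This difference was 0.089 without HNF6KO array 3, and 0.51 without HNF6KO array 4 (exact permutation test, two-sided, p = 0.0286, adjusted p = 0.0857). For Cyp8b1 minus Cyp7b1 the difference was 0.15, with means of -2.42 ± 0.62 in HNF6KO and -2.57 ± 0.47 in WT (SD, n = 4 each, exact permutation test, two-sided, p = 0.714, adjusted p = 0.714). It turned to -0.065 without HNF6KO array 1 and to -0.0013 without WT array 3, and was 0.43 without HNF6KO array 2. The smallest p that 4 against 4 arrays allow is 0.0286, which a lone pair could not carry below 0.05 after adjustment over the 3 pairs. No shift between the classic and the alternative route was detected in these 3 pairs.

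**Figure D3:**
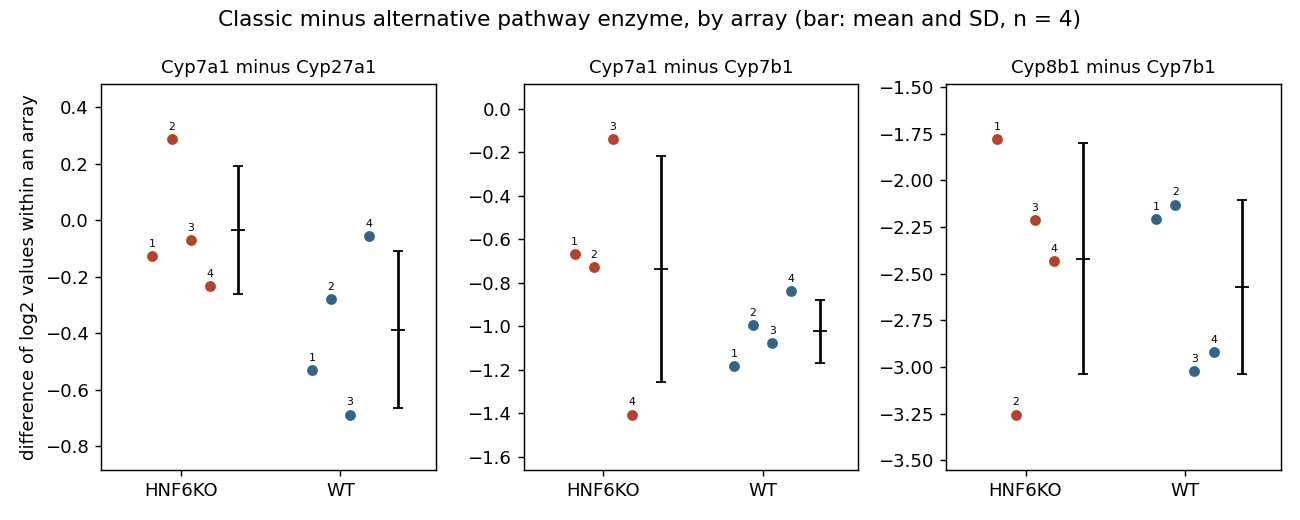
Difference of 2 log2 values within an array (vertical axis) for 3 pairs of a classic and an alternative enzyme, on the 4 HNF6KO and the 4 WT arrays with their numbers and a bar for mean and SD. The groups overlap in all 3 panels, and the HNF6KO mean is higher by 0.35, 0.29 and 0.15.

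Hsd3b7, the dehydrogenase that oxidises the 3β-hydroxyl group after the first hydroxylation, begins the shared steps. The Hsd3b7 probe set gave 11.16, 10.71, 10.75 and 10.80 on HNF6KO arrays 1 to 4, against 11.11, 11.29, 10.95 and 11.00 on WT arrays 1 to 4. HNF6KO array 1 lay among the WT arrays, and the other 3 lay below all of them. Hsd3b7 had a log2 change of -0.23 ± 0.11 (SE), with an interval of -0.49 to 0.02 (limma, adjusted p = 0.563).

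Akr1d1, the reductase that gives bile acids their bent ring system and also inactivates steroid hormones, stood higher in all 4 HNF6KO samples than in any WT sample. Log2 values of Akr1d1 were 11.41, 11.04, 11.00 and 11.42 on HNF6KO arrays 1 to 4, against 10.60, 10.51, 10.59 and 10.51 on WT arrays 1 to 4. The WT arrays lay within 0.09 of each other, and the lowest HNF6KO array stood 0.40 above the highest WT array. The means were 11.22 ± 0.23 in HNF6KO and 10.55 ± 0.05 in WT (SD, n = 4 each). Akr1d1 rose 1.58-fold, a log2 change of 0.66 ± 0.10 (SE), with a 95% interval of 1.35 to 1.86-fold (limma, adjusted p = 0.0412). The rise was as large within arrays 1 and 2 (0.67) as within arrays 3 and 4 (0.65).

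The call on Akr1d1 was lost in most fits with a single array left out, while its size changed little. Leaving out single arrays moved the log2 change only between 0.60 and 0.74. The adjusted p stayed below the threshold without HNF6KO array 2 (0.0436) or 3 (0.04996). It rose above it without HNF6KO array 1 (0.0623) or 4 (0.0835) and without WT array 1 (0.114), 2 (0.168), 3 (0.117) or 4 (0.09996). Normalization, variance model, filter, probe set choice, array weights, the block and the split as a term all kept the call (adjusted p 0.0230 to 0.0422). Of these, only normalization and array weights could move the log2 change. Akr1d1 had 1 probe set, and the other fits used the same values on the same balanced arrays.

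Upstream sequence was available in the RefSeq promoter table (GRCm38.p6) for 4 of the 10 enzymes, Cyp8b1, Cyp27a1, Hsd3b7 and Akr1d1. The 250 bases before the start site are shown for Akr1d1, which rose, and for Cyp27a1 (alternative route) and Cyp8b1 (classic route). Sequence is given because HNF6 is a DNA-binding factor. Akr1d1 lies at chr6:37529923-37530172 (plus strand), Cyp27a1 at chr1:74713285-74713534 (plus strand) and Cyp8b1 at chr9:121916306-121916555 (minus strand). Capitals mark matches, on either strand, to ATCAAT or ATCGAT (Onecut cores), AGGTCA (a nuclear receptor half-site), CAAAGTCCA (HNF4), CAAGGNCA (LRH-1), TTATGNAA (the D-box of PAR bZIP factors) and TATAAA.
Akr1d1: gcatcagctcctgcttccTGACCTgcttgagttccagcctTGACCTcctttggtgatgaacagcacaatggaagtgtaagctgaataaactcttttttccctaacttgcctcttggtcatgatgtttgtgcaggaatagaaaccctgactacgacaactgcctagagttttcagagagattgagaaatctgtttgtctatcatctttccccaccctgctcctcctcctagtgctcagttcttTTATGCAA
Cyp27a1: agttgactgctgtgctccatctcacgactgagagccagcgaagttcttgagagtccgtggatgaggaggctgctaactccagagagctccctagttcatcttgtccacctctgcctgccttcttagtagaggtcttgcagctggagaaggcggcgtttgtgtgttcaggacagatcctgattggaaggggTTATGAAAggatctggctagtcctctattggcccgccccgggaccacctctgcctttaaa
Cyp8b1: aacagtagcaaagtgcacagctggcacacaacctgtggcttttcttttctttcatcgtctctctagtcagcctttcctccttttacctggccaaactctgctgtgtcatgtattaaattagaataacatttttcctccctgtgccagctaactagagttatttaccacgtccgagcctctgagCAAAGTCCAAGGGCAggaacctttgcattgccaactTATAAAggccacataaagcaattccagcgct
Akr1d1 held the half-site at -232 to -227 and -210 to -205, both as the reverse complement TGACCT, and a D-box match at -8 to -1. Cyp27a1 held a D-box match at -60 to -53. Cyp8b1 held the HNF4 letters at -67 to -59 and the LRH-1 letters at -60 to -53, which share 2 bases, and TATAAA at -31 to -26. Hsd3b7 held none of these motifs, and neither Onecut core was found in any of the 4 windows. Over 32851 windows of the same length, ATCAAT occurred in 6.72%, ATCGAT in 0.728%, AGGTCA in 14%, CAAAGTCCA in 0.384%, CAAGGNCA in 5.53%, TTATGNAA in 3.07% and TATAAA in 12.4%. These matches describe letters and say nothing of binding.

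Amacr, the racemase that turns the side chain into the form peroxisomes can shorten, had log2 values of 10.33, 10.29, 10.12 and 10.12 on HNF6KO arrays 1 to 4, against 10.37, 10.32, 10.32 and 10.23 on WT arrays 1 to 4. The groups overlapped, and the log2 change was -0.10 ± 0.06 (SE), with an interval of -0.24 to 0.05 (limma, adjusted p = 0.710). This interval is the narrowest of the 10 enzymes.

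Slc27a5, the bile acyl-CoA synthetase that activates bile acids for conjugation, also separated the 2 groups, higher in HNF6KO, and did not pass over all genes. Log2 values of Slc27a5 were 12.39, 12.14, 12.16 and 12.15 on HNF6KO arrays 1 to 4, against 11.99, 11.86, 11.84 and 11.86 on WT arrays 1 to 4. Array 1 was the highest in both genotypes, and the nearest arrays of the 2 groups stood 0.15 apart. The log2 change was 0.32 ± 0.07 (SE), or 1.25-fold, with an interval of 0.16 to 0.48 (limma, unadjusted p = 0.00125, adjusted p = 0.131). The adjusted p came nearest to the threshold with the split of arrays as a term (0.0537) and with array weights (0.0545).

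Baat, which joins the activated bile acid to taurine or glycine in the next step, had log2 values of 11.05, 10.67, 10.75 and 10.73 on HNF6KO arrays 1 to 4, against 11.09, 10.91, 10.87 and 10.78 on WT arrays 1 to 4. The groups overlapped through HNF6KO array 1, and the other 3 HNF6KO arrays lay below all WT arrays. Baat had a log2 change of -0.11 ± 0.10 (SE), with an interval of -0.33 to 0.10 (limma, adjusted p = 0.793), and stood at -0.20 without HNF6KO array 1 and -0.053 without WT array 1. The 2 conjugating enzymes thus differed from WT with opposite signs, neither past the threshold, while they varied together between arrays. Their deviations from the group means correlated with r = 0.94 over the 8 arrays, a description that includes array 1 being highest in both groups for both genes.

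How often each array was the highest or lowest of its group was counted over the enzymes, and the largest counts are given. With 10 enzymes, nothing is read from them. HNF6KO array 1 was the highest of the HNF6KO arrays for 6 of the 10 enzymes, beside 38.7% of all genes, and HNF6KO array 2 was the lowest for 5, beside 24.9% of all genes. The enzymes lowest on array 2 were Cyp8b1, Cyp27a1, Hsd3b7, Slc27a5 and Baat. For Slc27a5 the margin was narrow, at 12.14 against 12.15 on HNF6KO array 4. Over the 8 arrays, deviations of Cyp8b1 from its group means correlated with those of Hsd3b7 (r = 0.80) and of Akr1d1 (r = 0.71). Any shift shared by a whole array would add to these r, and it was not tested.

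**Figure D4:**
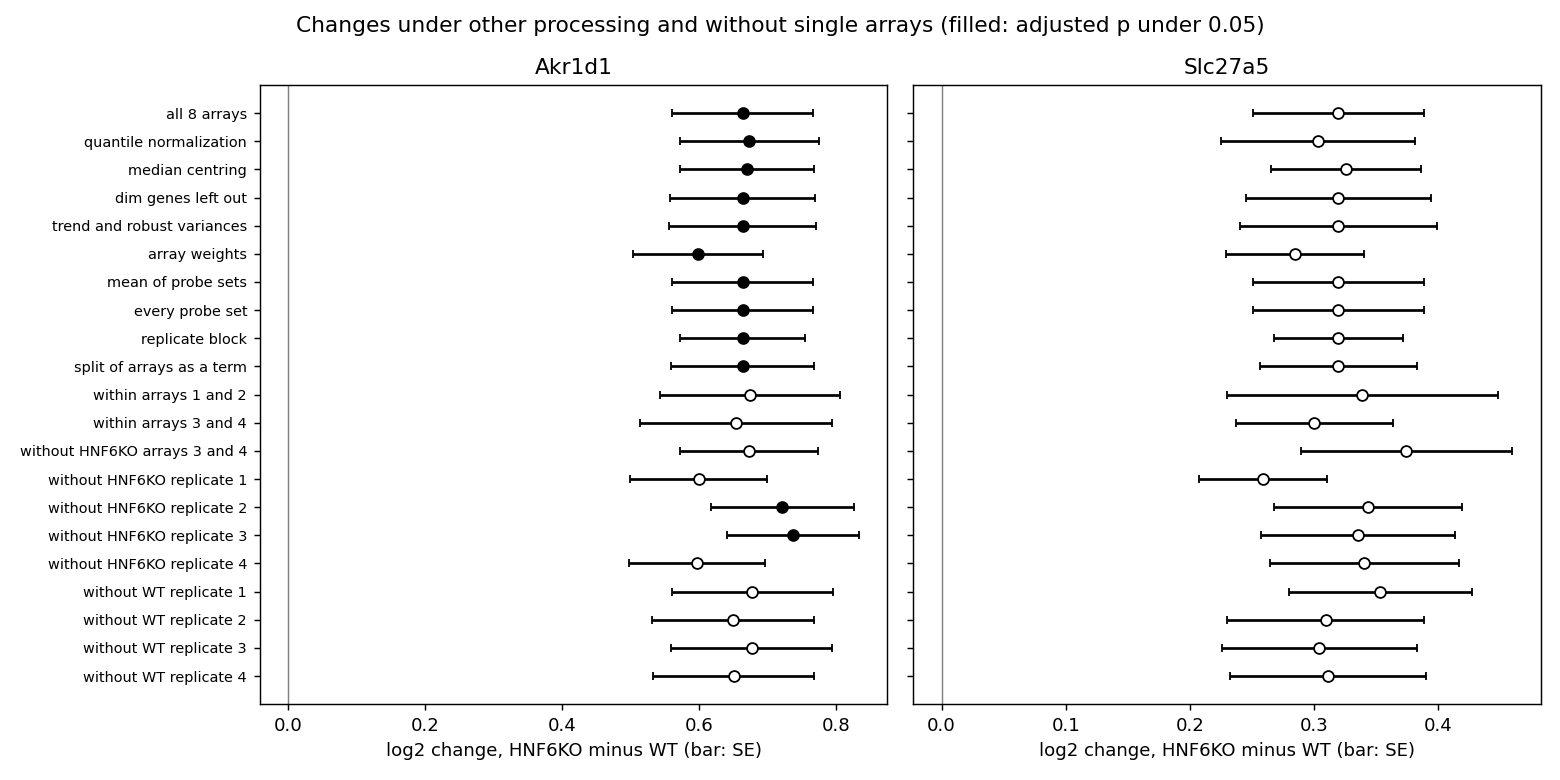
Log2 change of Akr1d1 and Slc27a5, HNF6KO minus WT, with its SE (horizontal axis) for all 8 arrays and under each alternative (vertical axis), filled where the adjusted p is below 0.05. Akr1d1 stays between 0.60 and 0.74 while the call is lost in 9 alternatives, and Slc27a5 stays between 0.26 and 0.37 and is never filled.

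None of the 23 measured other enzymes of bile acid synthesis, of 25 listed, passed the test in limma, beside 0.399% of all genes. At an unadjusted p of 0.05, 2 were higher and 3 lower, beside 4.3% and 5.21% of all genes. Their median log2 change was -2.14e-04. Cyp2c70, the cytochrome P450 that makes muricholic acids in mice, had log2 values of 12.89, 12.97, 13.09 and 12.98 on HNF6KO arrays 1 to 4, against 12.80, 12.37, 12.46 and 12.70 on WT arrays 1 to 4. The groups did not overlap, and its log2 change was 0.40 ± 0.10 (SE, limma, adjusted p = 0.176). Its probe set may bind other members of the Cyp2c family. The change was -0.27 ± 0.09 for Acnat1, a peroxisomal acyltransferase related to Baat (adjusted p = 0.377), and 0.30 ± 0.12 for Akr1c14, a hydroxysteroid dehydrogenase (adjusted p = 0.482). For Stard3, which binds cholesterol in endosomes, it was -0.16 ± 0.06 (adjusted p = 0.489).

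None of the 27 measured regulators of the pathway, of 30 listed, passed either, with 0 higher and 6 lower at an unadjusted p of 0.05 and a median log2 change of -0.031. Over all genes 4.3% were higher and 5.21% lower by that measure. Of the 27 regulators, 22 had a log2 change below 0 and 5 above, beside 11222 and 8318 of all 19540 genes. Nr1h4, which encodes the bile acid receptor FXR, had a log2 change of -0.046 ± 0.09 (SE, limma, adjusted p = 0.941). Nr0b2, encoding SHP, the repressor induced by FXR, had one of -0.014 ± 0.12 (adjusted p = 0.987). For Fgfr4, the hepatic receptor for FGF15, it was 0.060 ± 0.06 (adjusted p = 0.819). For these 3 genes of bile acid feedback the groups overlapped, and each 95% interval held 0.

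Klb, encoding the co-receptor beta-klotho that FGF15 needs to signal, lay lower on average without passing. Its log2 values were 8.32, 8.23, 8.60 and 8.72 on HNF6KO arrays 1 to 4, against 9.35, 9.09, 9.05 and 8.51 on WT arrays 1 to 4. WT array 4 lay within the HNF6KO range and the other 3 above it, and the log2 change was -0.53 ± 0.18 (SE, limma, unadjusted p = 0.0152, adjusted p = 0.351). Nr1d1, which encodes REV-ERBα, a clock repressor named in the study's title, had log2 values of 10.13, 9.42, 9.40 and 9.71 on HNF6KO arrays 1 to 4, against 10.92, 10.99, 10.26 and 9.55 on WT arrays 1 to 4. Its log2 change was -0.76 ± 0.31 (SE, limma, adjusted p = 0.477), and again WT array 4 lay within the HNF6KO range and the other 3 WT arrays above it. Of the others, the log2 change was -0.15 ± 0.05 for the coactivator Crebbp (adjusted p = 0.346), -0.45 ± 0.18 for the pioneer factor Foxa1 (0.450) and -0.20 ± 0.08 for Nfil3, a D-box repressor (0.450). The HNF6KO arrays lay below all WT arrays for these 3 of the 27 regulators, beside 3.21% of all genes.

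**Figure D5:**
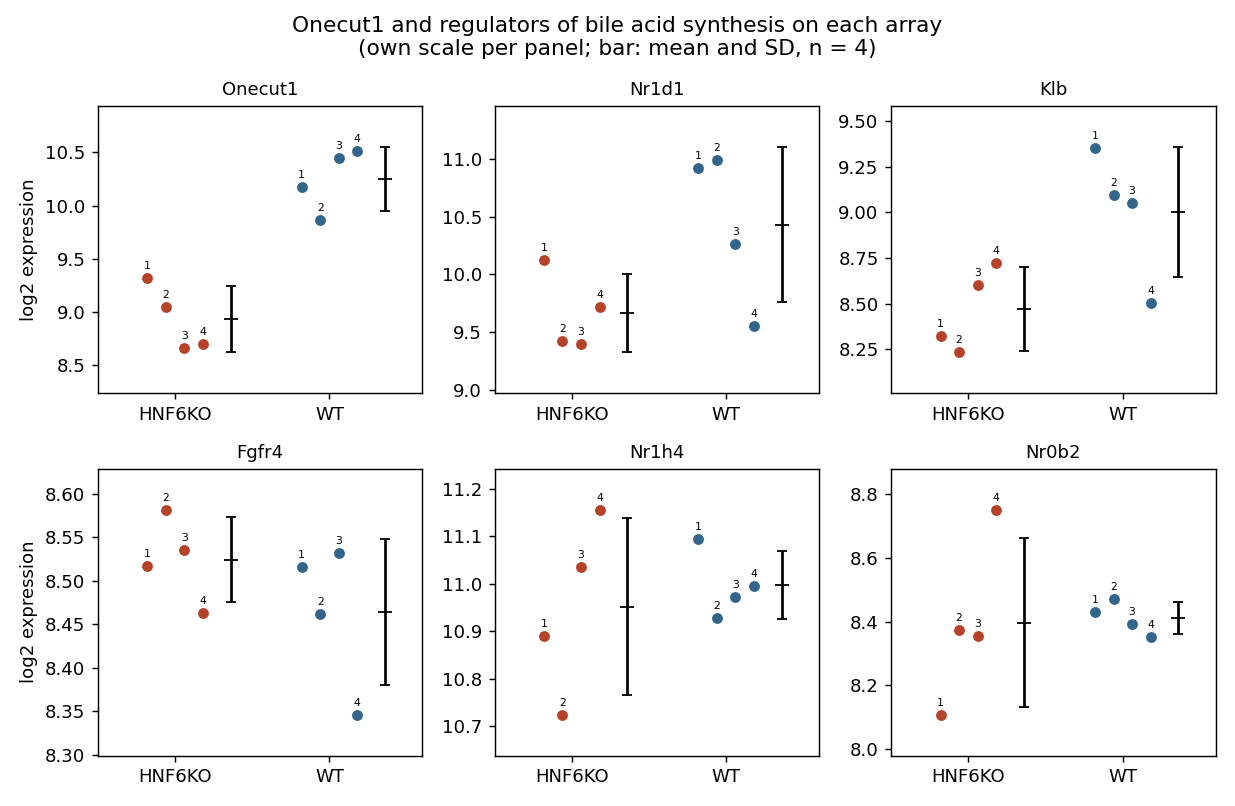
Log2 expression of Onecut1 and 5 regulators of bile acid synthesis (vertical axis, a scale of its own in each panel) on the 4 HNF6KO and the 4 WT arrays, with array numbers and a bar for mean and SD. Only for Onecut1 among these 6 genes are all HNF6KO arrays below all WT arrays, and WT array 4 falls inside the HNF6KO range for Nr1d1 and Klb.

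Of 18 measured genes of bile acid transport, Slco1a1, an uptake transporter for organic anions, fell by 3.72 ± 0.52 (SE) on the log2 scale (limma, adjusted p = 0.0279), and 17 did not pass. Without HNF6KO array 1 or 3 or any 1 of the WT arrays its adjusted p was 0.0547 to 0.116, and with all 8 arrays it was 0.0667 under trend and robust variances. The related Slco1a4 was higher on average in HNF6KO, with a log2 change of 1.65 ± 0.37 (SE, limma, adjusted p = 0.144). Signal can be shared between the probe sets of this family. Log2 changes were 0.64 ± 0.13 for the efflux pump Abcb1a (adjusted p = 0.111) and -0.52 ± 0.15 for the exporter Abcg2 (adjusted p = 0.269). For Slc10a1, the main importer of bile acids into hepatocytes, named after its values were seen, the change was -0.38 ± 0.14 (adjusted p = 0.406), with all HNF6KO arrays below all WT arrays. At an unadjusted p of 0.05, 5 transport genes were higher and 3 lower, beside 4.3% and 5.21% of all genes. Groups did not overlap for 5 of the 18, 2 higher and 3 lower, beside 2.45% and 3.21% of all genes. The list's median was -0.0093, with 9 genes above 0 and 9 below.

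Genes whose values most resembled those of an enzyme over the 8 arrays were named by Pearson r, as a description. This r takes in the difference between genotypes, so genes chosen by likeness to Akr1d1 tend to differ between them too. Their p-values are therefore no separate evidence. The 5 most like Akr1d1 were Pyroxd2 (r = 0.97), Abat (0.96), Emc2 (0.96), Mccc1 (0.96) and Hibch (0.96). Of these, Mccc1, a subunit of the carboxylase that breaks down leucine, rose by 0.45 on the log2 scale (limma, adjusted p = 0.0187, and 0.0768 to 0.0858 without WT array 1, 2 or 3), and for Abat, the transaminase of GABA, it was 0.29 (adjusted p = 0.0647). The 5 most like Cyp8b1 were Mri1, Apex1, Lonp2, Tnfaip2 and Mocos (r from 0.95 to 0.96). The 5 most like Cyp7a1 were Mtag2, Cdc45, Sgo1, Cd200r3 and Speer4a (r from 0.94 to 0.98), whose own values varied over the arrays by 0.10 to 0.34, against 0.73 for Cyp7a1 over the WT arrays. Mean log2 values of these 5 genes were 4.73 to 6.98, near or below the array medians of 6.89 to 6.97.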

How the data were processed

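The authors deposited 1 value per probe set and array, which reads as log2 expression (3.69 to 14.1). The log base, background correction and normalization are unstated in the sources used here, so a shift of most transcripts that normalization removed would not be visible. Of 22725 probe sets, 21113 had 1 gene symbol in the platform annotation, 43 had several and 1569 none here; the brightest by mean stood for each of 19540 genes. No value was rescaled or filtered. HNF6KO was compared with WT with limma 3.58.1 in R 4.3.3 (lmFit, eBayes, no trend), which was also tested on simulated data. Intervals are 95% moderated intervals. The 4 arrays per group limit precision.

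The 10 enzymes, the other lists (118 of 130 genes measured, the rest not analysed here) and the tests were chosen with earlier results of these data known. Named are the enzymes, Onecut1, 5 chosen regulators and, per list, genes past the threshold or up to 4 with the smallest p. Alternatives were 2 normalizations, a filter, variance models, array weights, other probe set rules, the array number as a block, the split of arrays 1 and 2 from 3 and 4, a threshold of 0.1 and single arrays left out.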

Additional observations from a re-analysis of the deposited data

Results flagged for a closer look

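An array was set apart where its gap to the nearest array of its group, over the group's range, exceeded Dixon's 95% critical value for 4 samples. This held for 5 of 60 groups examined (27 genes and 3 pair differences in HNF6KO and in WT), where chance gives about 1 in 20. Slc27a5 stood apart on array 1 in both genotypes, high in each (gap over range 0.899 in HNF6KO and 0.859 in WT). Abcb1a was high on HNF6KO array 4 (0.945). Abcg2 was low on HNF6KO array 2 (0.868). Slco1a4 was low on WT array 4 (0.832).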

How the results depend on the processing

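The sign of the change held under every alternative tried for 8 of the 10 enzymes. It turned for Cyp7a1 (0.023 ± 0.14, SE) and Cyp8b1 (-0.12 ± 0.35), whose changes were smaller than their SE. In fits of all 8 arrays only normalization and array weights could move the log2 change of any enzyme, each having 1 probe set. Akr1d1 kept its size where it could move. It lost its call in 9 alternatives, each with fewer arrays, and kept it without HNF6KO array 2 or 3. Within arrays 3 and 4 the log2 change was -0.13 for Cyp7a1, 0.33 for Cyp8b1 and 0.65 for Akr1d1 (adjusted p = 0.138). Akr1d1 had 0.67 within arrays 1 and 2 (0.213) and 0.67 without HNF6KO arrays 3 and 4 (0.0766), and in these 3 fits 0 enzymes passed. Without single arrays the enzymes past the threshold numbered 0 to 1, and the log2 change ran from -0.094 to 0.15 for Cyp7a1, -0.32 to 0.15 for Cyp8b1, and 0.60 to 0.74 for Akr1d1. Cyp7a1 was -0.094 without WT array 1 and -0.033 without WT array 3, and Cyp8b1 was 0.15 and 0.013 without HNF6KO arrays 2 and 3 in turn and 0.069 without WT array 2. The pair difference of Cyp8b1 and Cyp7b1 ran from -0.065 (without HNF6KO array 1) through -0.0013 (without WT array 3) to 0.43.

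The 78 genes passing became 202 with array weights, 125 with the array number as a block, 245 with the split of arrays as a term, 22 within arrays 1 and 2, 19 without HNF6KO arrays 3 and 4, 162 at a threshold of 0.1, and 16 to 79 without single arrays. The cause was not tested. With the replicate block Akr1d1 stood at 0.66 (adjusted p = 0.0420), and pair differences stayed at 0.35, 0.29 and 0.15 (exact adjusted p = 0.75 for each, where 4 pairs of arrays cannot pass). Deviations of same-numbered arrays correlated with r = 0.44, 0.17, 0.51 and 0.02 for numbers 1 to 4. Only arrays 1 and 3 of HNF6KO correlated best with their own number, so the numbers are not taken as pairs. The deviations did follow the split. HNF6KO arrays 1 and 2 had r of 0.17 to 0.44 with WT arrays 1 and 2, and -0.42 to 0.02 with WT arrays 3 and 4. HNF6KO arrays 3 and 4 had r of -0.50 to -0.21 and 0.02 to 0.51 in turn.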
